A study of Homo sapiens with 18 samples.

Results

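The 10 genes described here were beta-catenin, encoded by CTNNB1, its partners at cell-cell junctions (CTNNA1, CTNND1 and JUP), the destruction complex (APC, AXIN1, AXIN2 and GSK3B), the Wnt co-receptor LRP6 and the nuclear factor TCF7L2. They were taken by gene symbol from a table of 21111 TempO-Seq probes for 19289 genes, and each was read by a single probe, so the 10 genes correspond to 10 probes. The genes were chosen by symbol after the normalized read counts of these libraries, those of CTNNB1 with siASAP1 and siCtrl among them, had been seen, so p-values for siASAP1 against siCtrl are given as descriptions of the fit and not as independent support. The study silenced ASAP1, which encodes an Arf GTPase-activating protein, in the triple-negative breast cancer (TNBC) cell lines BT549, Hs578T and SUM149PT. Cells of each line received 50 nM of a SMARTpool, a mix of siRNAs against 1 gene (siASAP1), or 50 nM of a pool of kinase siRNAs as the control (siCtrl), and were lysed after 72 h. There were 3 libraries in each of the 6 groups, 18 in all, and the study's methods call them biological triplicates. Each cell line is an established line grown from a single tumor, so a difference between lines is a difference between these 3 lines. TempO-Seq anneals a pair of detector oligos side by side on an RNA, ligates them and counts the product by sequencing. A normalized read count below is the reads of a probe divided by the library's size factor, and a log2 value is the log2 of that count plus 1. Probes differ in efficiency and the stretch of transcript that each covers was not determined here, so levels were not compared between genes.

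Beta-catenin has a place at the membrane and a place in the nucleus. At adherens junctions it ties the tails of classical cadherins to alpha-catenin, while plakoglobin (JUP), a close relative, can take its place and also serves desmosomes, and p120-catenin (CTNND1) binds the same cadherins nearer the membrane and keeps them at the cell surface. In the cytoplasm the scaffolds APC and Axin present free beta-catenin to casein kinase 1 and GSK3 for phosphorylation and degradation, and a Wnt signal through Frizzled and LRP6 halts this, so that beta-catenin enters the nucleus and works with TCF/LEF factors on targets that include AXIN2. Much of this regulation acts on the protein, whereas the values here are levels of RNA.

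The libraries held 4.63 to 12.5 M reads, and replicates of a group differed by more than the counting of reads allows. ASAP1 was lower on average after siASAP1 but was read in every library. Its mean normalized read count after siASAP1 was 62.3% of that after siCtrl in BT549, 49.9% in Hs578T and 36.1% in SUM149PT. By limma the Log2 FC of ASAP1 was -0.75 (SE 0.39) in BT549, -0.98 (SE 0.32) in Hs578T and -1.16 (SE 0.77) in SUM149PT. None passed adjustment over all probes (adjusted p 0.65 to 0.91 by limma). Over the 18 libraries ASAP1 did not pass either (-0.96, SE 0.31, adjusted p = 0.13 by limma). The groups did not overlap in BT549 (13.9% of all probes did not) and Hs578T (12.1%). In SUM149PT they overlapped, because the library labelled siCtrl replicate 2 held 189 normalized reads of ASAP1, against 1087 and 1314 in the other siCtrl libraries. Across all probes its correlation with the rest of its group was also the lowest of the 18 (r = 0.773, against 0.846 to 0.961). The siASAP1 libraries of SUM149PT held 282, 468 and 184 normalized reads of ASAP1, all below the controls with 1087 and 1314. For the 10 genes, SUM149PT values that change in sign or call without siCtrl replicate 2 are given both ways. For ASAP1 and the further pathway genes, SUM149PT fits are given with all libraries only. Of the epithelial markers, EPCAM lay between 18700 and 36700 normalized reads in SUM149PT and KRT17 between 647 and 5510, while CDH1 and KRT5 had no read in any BT549 or Hs578T library. The most abundant VIM probe lay at 27300 or above in BT549, at 94400 or above in Hs578T and at 2970 or below in SUM149PT. Not every marker followed this split, since the mesenchymal CDH2 had a higher median in SUM149PT (1700) than in BT549 (508) and the basal KRT14 had a median of 0 in all 3 lines. Of the markers of other cell types, the leukocyte gene PTPRC was at or near 0 in all 3 lines, while one of the PECAM1 probes read 25.6 to 103 in SUM149PT and 13.9 to 46.9 in Hs578T, and the other read 0 throughout.

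The mean level of CTNNB1 transcript was lower after siASAP1 in all 3 lines, and it was the single gene of the 10 that passed the test over the 18 libraries. The gene spans 65.4 kb on the plus strand of chromosome 3 (positions 41194741 to 41260096, GRCh38). In BT549 the siCtrl libraries held 1826, 1259 and 1045 normalized reads of CTNNB1 and the siASAP1 libraries 697, 642 and 652. All siASAP1 libraries lay below all siCtrl libraries, and the mean after siASAP1 was 48.2% of the control mean (664 ± 29.2 against 1380 ± 403, SD, n = 3). In SUM149PT the siCtrl libraries held 1765, 1723 and 1621 and the siASAP1 libraries 1136, 920.5 and 946. Here too the groups did not overlap, at 58.8% of control, and CTNNB1 in siCtrl replicate 2 lay with the other controls although its ASAP1 did not. In Hs578T the values were 1905, 1510 and 1580 after siCtrl and 1517, 1292 and 1115 after siASAP1. The groups overlapped by a single library, the siASAP1 library with 1517 normalized reads lying just above the lowest control, and the mean after siASAP1 was 78.6% of control. In bulk lysates of this kind a change in the mix of cells and a change in RNA per cell cannot be told apart.

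**Figure D1:**
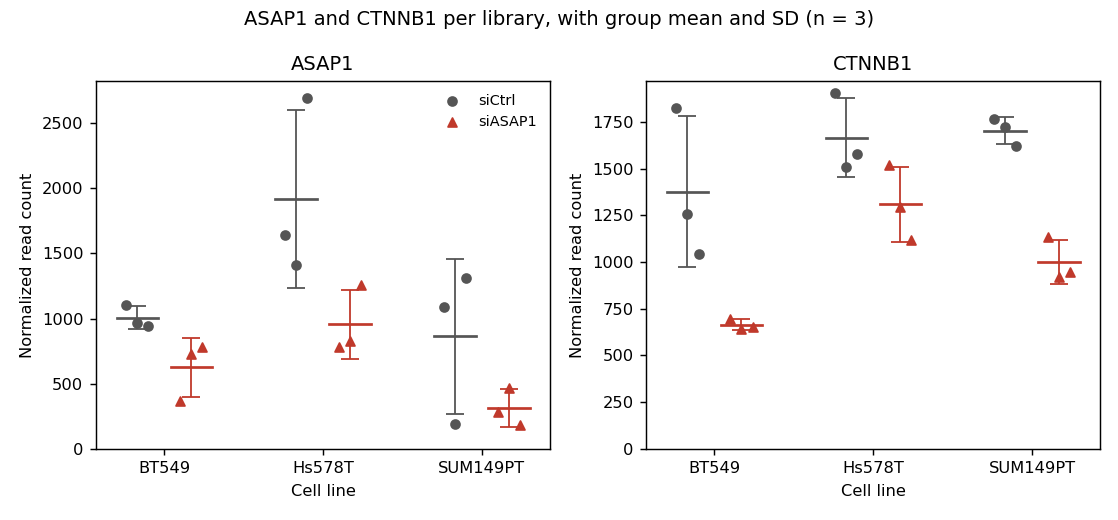
Normalized read count of ASAP1 (left) and CTNNB1 (right) in each library by cell line. Circles are siCtrl and triangles siASAP1 libraries, the long bar is the group mean and the whiskers the SD (n = 3). The CTNNB1 libraries after siASAP1 lie below all controls in BT549 and SUM149PT and overlap by a single library in Hs578T. The lowest ASAP1 control in SUM149PT (189) has a CTNNB1 count of 1723.

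Within single lines the change of CTNNB1 did not pass adjustment over all probes. The Log2 FC by limma was -1.01 (SE 0.35, adjusted p = 0.58) in BT549, -0.35 (SE 0.24, adjusted p = 0.92) in Hs578T and -0.77 (SE 0.33, adjusted p = 0.49) in SUM149PT. The study's limits for differentially expressed genes (DEGs) were an absolute Log2 FC over 1 with an unadjusted p under 0.05. By these CTNNB1 was a DEG in BT549, where 6.97% of all probes tested met these limits (3.69% downwards) and where CTNNB1 sat just past the fold limit. It was no longer a DEG there without siASAP1 replicate 2 (Log2 FC -0.99) or without siCtrl replicate 1 (-0.79). The call was also lost with quantile normalization (-0.98) and with scaling by library totals (-0.95). Of all probes tested, every siASAP1 library lay lower for 6.51% in BT549 and 8.41% in SUM149PT.

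In the fit of all 18 libraries, which took out the differences between lines, the Log2 FC of CTNNB1 was -0.71 (SE 0.15, adjusted p = 0.02 by limma), which ranked 90 of the 10475 probes by p. Of these probes 1.74% had an adjusted p under 0.05, and 1.06% had it with a lower level after siASAP1. The call held when any single library was left out (adjusted p 0.019 to 0.045 by limma), including siCtrl replicate 2 of SUM149PT (0.027), and was lost with scaling by library totals (Log2 FC -0.58, adjusted p = 0.054 by limma). The test of whether the effect differed between lines gave an adjusted p of 0.97 by limma for CTNNB1. Over these libraries 58.3% of the variance of CTNNB1 lay between treatments within lines, 29.1% between lines and 12.6% between replicates, while no other gene of the 10 had more than 20.9% between treatments.

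The controls of the 3 lines held similar levels of CTNNB1. The log2 means after siCtrl were 10.39 in BT549, 10.69 in Hs578T and 10.73 in SUM149PT, and none of the pairwise tests between lines passed (adjusted p 0.49 to 0.95 by limma). These levels did not differ beyond their spread.

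**Figure D2:**
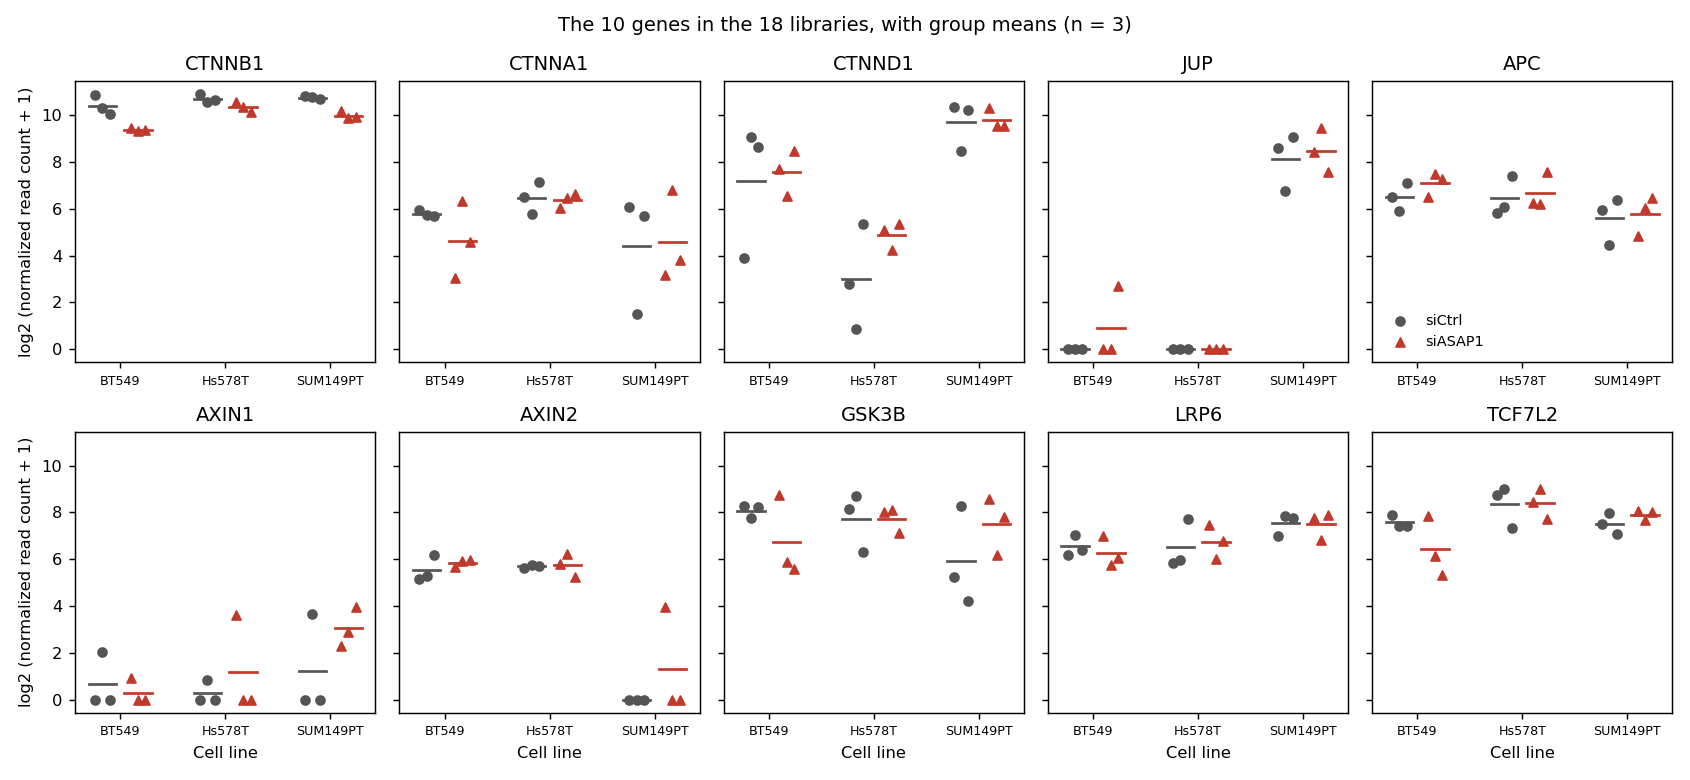
Log2 of the normalized read count plus 1 of each of the 10 genes in the 18 libraries, by cell line. Circles are siCtrl and triangles siASAP1 libraries, and the bar is the mean of 3 libraries. CTNNB1 has a lower mean after siASAP1 in every line, with overlap in Hs578T, JUP is high in SUM149PT (mean log2 8.13 after siCtrl) and AXIN2 is at 0 in the SUM149PT controls.

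Of the junction partners, plakoglobin separated the lines most sharply. JUP lies on the minus strand of chromosome 17 (41754604 to 41786931). The SUM149PT libraries held 388, 106 and 527.5 normalized reads of JUP after siCtrl and 340, 688 and 188 after siASAP1. No JUP read was found in any siCtrl library of BT549 or in any Hs578T library, and a single siASAP1 library of BT549 held 6 reads. SUM149PT and the other lines did not overlap. Against a floor of 3 reads, at the highest normalized value that 3 reads took in a library of the group at 0, JUP was at least 90.9-fold higher in the SUM149PT controls than in those of BT549 and at least 115-fold higher than in those of Hs578T (counting error only). The fitted differences passed the test (adjusted p = 3.4e-05 and 2.8e-05 by limma). Between treatments in SUM149PT, JUP overlapped (Log2 FC 0.34, SE 0.73, adjusted p = 0.9 by limma), and without siCtrl replicate 2, the lowest control, the Log2 FC was -0.36.

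The RefSeq promoter windows of JUP were searched for the E-box letters CACCTG on both strands, since JUP had no read in most BT549 and Hs578T libraries. These letters are the core that repressors of the ZEB and SNAI families, among other factors, bind. A window held 250 bases before a start and 50 after it, and 7 of the 10 genes had windows (14 in all, GRCh38.p14). A JUP window held a match on each strand, at offsets -54 and -43 from a start within the gene. The 30 bases around them, chr17:41786008-41786037 on the minus strand, are shown 5′ to 3′ with the matches in capitals.
JUP: ctggcccCACCTGccgagCAGGTGagcgca
The same letters occurred in 20.6% of the 35116 windows of all genes, and AXIN1 was the other gene of the 10 with a match. The ZEB1 probe was at or near 0 in all 3 lines, so it gave no measure of that factor. A match is a description of letters and not a site of binding.

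p120-catenin was also highest on average in SUM149PT, with more spread. CTNND1, on the plus strand of chromosome 11 (57753243 to 57819546), had 1306, 353.5 and 1186 normalized reads in the SUM149PT controls. The BT549 controls held 13.7, 533 and 400 and the Hs578T controls 5.91, 0.816 and 39.4. SUM149PT lay above Hs578T in every library, and BT549 overlapped both. In the control libraries the Log2 FC of SUM149PT against Hs578T was 6.68 (SE 1.44, adjusted p = 0.0084 by limma). SUM149PT and BT549 did not differ beyond their spread (Log2 FC 2.48, adjusted p = 0.29 by limma), nor did BT549 and Hs578T (4.20, adjusted p = 0.088 by limma). The last of these rested on the BT549 control with 13.7 normalized reads, since without it the Log2 FC was 5.86 (adjusted p = 0.013 by limma), and it also passed when all 18 libraries shared a fit (adjusted p = 0.018 by limma). After siASAP1 the Hs578T libraries held 32.9, 17.9 and 39.5 normalized reads of CTNND1, overlapping the controls (Log2 FC 1.89, SE 1.10, adjusted p = 0.92 by limma). This rested on siCtrl replicate 3 with 39.4 normalized reads, without which CTNND1 met the DEG limits in Hs578T (3.06, adjusted p = 0.27 by limma). Without that library calls over all probes in Hs578T numbered 634 in place of 264. The Log2 FC of CTNND1 was 0.37 in BT549 and 0.11 in SUM149PT, with overlap in each. It was -0.50 in SUM149PT without siCtrl replicate 2. In BT549 it was -1.29 without siCtrl replicate 1 and 1.30 without siCtrl replicate 2.

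CTNNA1, which encodes alpha-catenin, the link from beta-catenin to actin, was read low and unevenly. Its gene spans 324.1 kb on the plus strand of chromosome 5 (138610967 to 138935034). The SUM149PT controls held 65.8, 1.82 and 51.2 normalized reads of CTNNA1 and the siASAP1 libraries 7.94, 109 and 13.1. In BT549 the controls lay close together at 61.1, 52.2 and 49.8 while the siASAP1 libraries held 7.11, 78.3 and 22.8. Hs578T spread less, from 53.9 to 138.9 over its 6 libraries. The groups overlapped in every line, and the Log2 FC was -1.15 (SE 0.79), -0.11 (SE 0.43) and 0.17 (SE 1.47) in BT549, Hs578T and SUM149PT. Without siASAP1 replicate 2, the highest of its group, CTNNA1 met the DEG limits in BT549 (-1.99, adjusted p = 0.93 by limma), and without siCtrl replicate 2 its Log2 FC in SUM149PT was -1.30.

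A RefSeq promoter window of CTNNA1 held the letters of the TCF/LEF motif, CTTTGAT on either strand, which occurred in 2.62% of the 35116 windows. CTNNA1 was the single gene of the 7 with such a match, at offset -41 from a start within the gene, and its 30 bases at chr5:138875178-138875207 (plus strand, GRCh38.p14) are shown because it is the motif that the beta-catenin partner factors bind. The match is in capitals.
CTNNA1: tcagctggttaATCAAAGcttcagtctcct
The 2 CTNNA1 windows with the match overlap and hold the same site. No window of AXIN2, CTNND1 or LRP6 was searched here.

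In the destruction complex, AXIN2 ran against JUP across the lines. AXIN2 is a scaffold of the complex and itself a target of Wnt signalling, on the minus strand of chromosome 17 (65528563 to 65561647). The BT549 controls held 34.9, 37.7 and 71.5 normalized reads of AXIN2 and the Hs578T controls 48.1, 53.0 and 52.2. No AXIN2 read was found in any SUM149PT control, and a single SUM149PT siASAP1 library held 11 reads. BT549 and Hs578T both lay above SUM149PT, and their controls did not differ from each other beyond their spread. Against the floor of 3 reads, AXIN2 was at least 10.0-fold higher in the BT549 controls and at least 10.7-fold higher in the Hs578T controls than in those of SUM149PT (adjusted p = 8.9e-05 and 6.6e-05 by limma for the fitted differences). After siASAP1 AXIN2 held 49.8, 60.4 and 61.1 normalized reads in BT549 and 54.4, 74.6 and 37.3 in Hs578T, with overlap in both lines (Log2 FC 0.31, SE 0.52 and 0.06, SE 0.42).

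The related scaffold AXIN1 (chromosome 16, 287440 to 352673, minus strand) could not be compared. Its probe had at most 13 reads in any library, with no read in 10 of the 18, and it failed the minimum mean normalized count of 10 in every comparison. A probe at or near 0 limits what this probe detected and says nothing of the protein.

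GSK3B, the kinase that marks beta-catenin for degradation, varied strongly between replicates. It spans 273.1 kb on the minus strand of chromosome 3 (119821323 to 120094417). The BT549 controls held 307, 214 and 298 normalized reads of GSK3B and the siASAP1 libraries 424, 57.6 and 46.5. In SUM149PT the controls held 37.2, 306 and 17.6 and the siASAP1 libraries 376, 71.8 and 222. In each of these lines a single library, siASAP1 replicate 1 of BT549 and siCtrl replicate 2 of SUM149PT, stood on the other side from its group. With all libraries the Log2 FC was -1.35 (SE 0.74, adjusted p = 0.65 by limma) in BT549 and 1.60 (SE 1.08, adjusted p = 0.66 by limma) in SUM149PT, opposite in sign. Without the first of these libraries GSK3B was lower in BT549 by a Log2 FC of -2.36 (adjusted p = 0.024 by limma). Calls over all probes by the DEG limits then numbered 2169 of 9658 in BT549, in place of 674. Without the second library GSK3B was higher in SUM149PT by 2.78 (adjusted p = 0.084 by limma). Calls over all probes there numbered 2325 of 9953, in place of 963. In Hs578T, GSK3B lay between 78.8 and 420 and its Log2 FC was 0.01 (SE 0.58). The difference between lines did not pass (adjusted p = 0.93 by limma). The siCtrl pool is made of kinase siRNAs and GSK3B encodes a kinase. The study's methods state that the pool did not significantly alter single kinase genes, and its part in these values was not tested.

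APC, the large scaffold of the complex (chromosome 5, 112707498 to 112846239, plus strand), overlapped between treatments in every line. Its group means lay between 54.7 and 140 normalized reads, and the Log2 FC was 0.58 (SE 0.50) in BT549, 0.22 (SE 0.54) in Hs578T and 0.18 (SE 0.74) in SUM149PT. Without siCtrl replicate 2 the SUM149PT value was -0.39. APC showed no change larger than the spread between replicates.

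The co-receptor LRP6 (chromosome 12, 12116025 to 12267012, minus strand) had the Log2 FC nearest to 0 over the 18 libraries. Its libraries lay between 52.9 and 130.2 normalized reads in BT549, between 56.5 and 209 in Hs578T and between 111.5 and 238 in SUM149PT. That Log2 FC was -0.03 (SE 0.31, adjusted p = 0.98 by limma), and in SUM149PT it was -0.05 with and 0.10 without siCtrl replicate 2.

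TCF7L2, a nuclear partner of beta-catenin (chromosome 10, 112950250 to 113167678, plus strand), held 240, 170 and 168 normalized reads in the BT549 controls and 228, 68.9 and 39.2 after siASAP1. As with GSK3B, siASAP1 replicate 1 lay with the controls and the other siASAP1 libraries below them. The Log2 FC of TCF7L2 in BT549 was -1.15 (SE 0.61, adjusted p = 0.65 by limma), and -1.85 (adjusted p = 0.047 by limma) without that library. Leaving it out raised the calls over all probes in BT549 to 2169, as given for GSK3B. In Hs578T and SUM149PT the groups overlapped, with a Log2 FC of 0.03 (SE 0.49) and 0.38 (SE 0.44). The latter was 0.61 without siCtrl replicate 2.

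**Figure D3:**
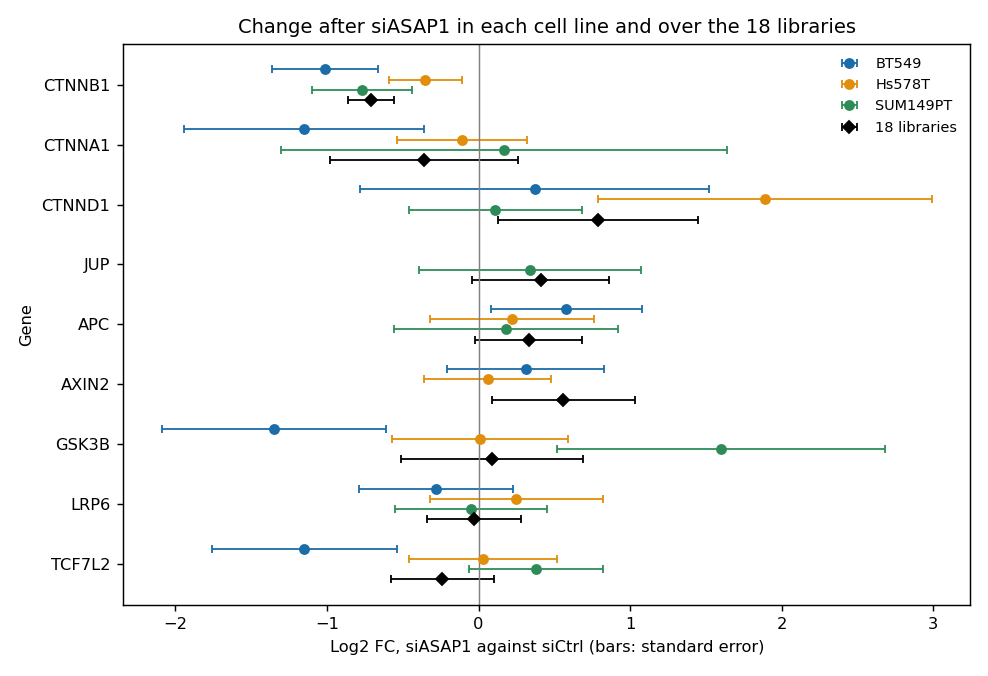
Log2 FC of siASAP1 against siCtrl for the genes that passed the minimum in each line (circles) and over the 18 libraries (diamonds), with the standard error as bars. CTNNB1 lies below 0 in all 4 fits with the narrowest bars (SE 0.15 over the 18 libraries), while GSK3B lies on opposite sides of 0 in BT549 and SUM149PT.

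By the DEG limits, then, 1 of the 8 genes tested was called in BT549 (CTNNB1, lower, against 6.97% of all probes). In Hs578T 0 of 8 met the limits (2.78% of all probes), and by limma 0 of 8 had an unadjusted p under 0.05 (5.28%). In SUM149PT 0 of 8 met the limits (9.56% of all probes), and CTNNB1 was the 1 gene with an unadjusted p under 0.05 by limma (10.2%). Without siCtrl replicate 2 GSK3B met the limits there, and calls over all probes numbered 2325 in place of 963. Over the 18 libraries 1 of 9 was called (1.74% of all probes). The test of a difference between lines called 0 of 9 (0.00955% of all probes), and 0 of 9 had an unadjusted p under 0.05 by limma (6.22%). Between the control libraries of the lines, 2 of 9 were called for SUM149PT against BT549 (18.2% of all probes), 3 of 9 for SUM149PT against Hs578T (20.2%) and 0 of 9 for BT549 against Hs578T (13.9%). In the last, CTNND1 was the 1 gene of 9 with an unadjusted p under 0.05 by limma (25.9%). With so few genes these shares cannot be set apart from the background.

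Part of the replicate spread of the genes was shared. When each library was set against the mean of its group, the first axis of these deviations held 42.5% of the replicate variance over 10475 probes. SUM149PT siCtrl replicate 2 had the highest score on it (0.56), BT549 siASAP1 replicate 1 the next (0.34), and SUM149PT siASAP1 replicate 2 the lowest (-0.37). The members lay at opposite ends of it. Pearson's r with the axis over the 18 libraries was 0.93 for GSK3B and 0.66 for TCF7L2, and -0.93 for CTNNA1, -0.71 for JUP and -0.70 for APC. The median absolute r over all probes was 0.57, and 25% of probes had one over 0.8. GSK3B and CTNNA1 deviated in opposite directions (r = -0.87 over 18 libraries that share the axis), and GSK3B and TCF7L2 together (r = 0.82). CTNNB1 stood nearly clear of the axis (r = 0.08), with 0.624% of its replicate variance on it, against 86.3% for GSK3B and 86.5% for CTNNA1. What the axis stands for was not tested.

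**Figure D4:**
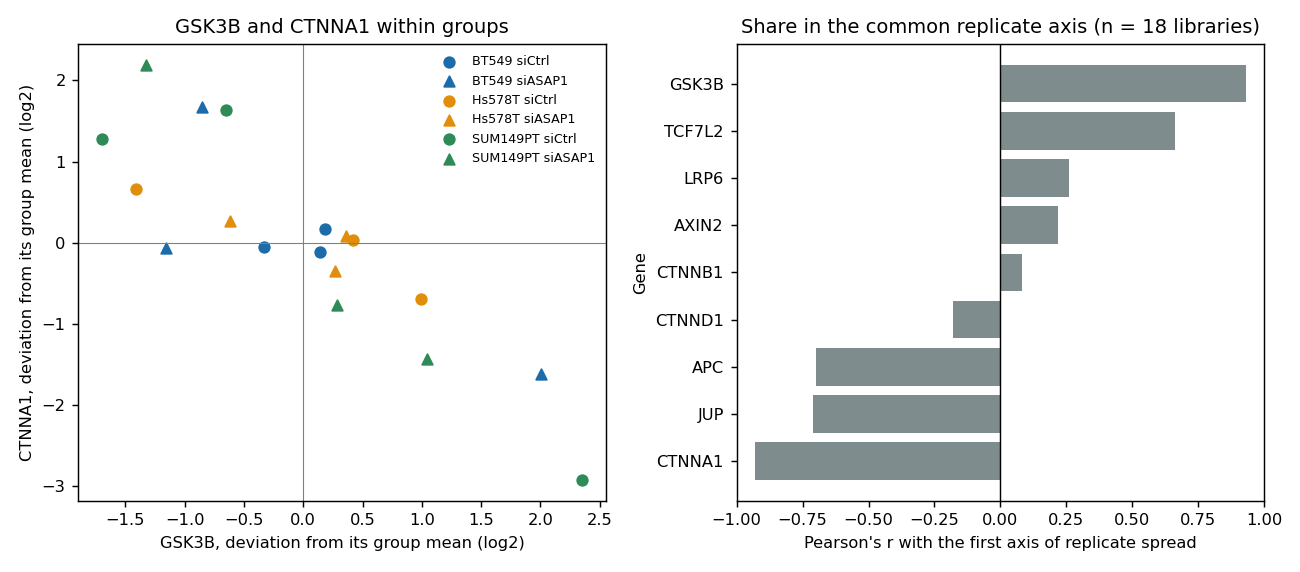
Left, deviation of GSK3B (x) and CTNNA1 (y) from their group means in log2 units in the 18 libraries, coloured by cell line, with circles for siCtrl and triangles for siASAP1. The points run from upper left to lower right (r = -0.87), and SUM149PT siCtrl replicate 2 is at the lower right end. Right, Pearson's r of each gene's deviations with the first axis of replicate spread, from -0.93 for CTNNA1 to 0.93 for GSK3B, with CTNNB1 at 0.08.

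The probes whose pattern was nearest to that of CTNNB1 over the 18 libraries, by the mean absolute difference of centred log2 values, were PNRC2 (0.21), LSM6 (0.217), UQCRC1 (0.22), TRMT1L (0.227) and VEGFB (0.242), against a median of 0.99 over 10475 probes. As the choice by likeness to CTNNB1 entails, their means were lower after siASAP1, with differences of log2 means from -0.15 (PNRC2 in Hs578T) to -0.94 (LSM6 in SUM149PT). None of the other 9 genes was among them.

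The wider pathway was followed with 134 further symbols of ligands, receptors, inhibitors, relay proteins, nuclear factors, cadherins and targets, of which 133 were in the table. After siASAP1 the share that met the limits was near that of all probes. By the DEG limits BT549 had 6 calls among 63 probes (2 up and 4 down, against 3.28% and 3.69% of all probes, 6.97% together). Hs578T had 2 among 67, both up (1.34%), and SUM149PT 7 among 75 (6 up and 1 down, against 5.27% and 4.29%). The median Log2 FC was 0.08, 0.09 and 0.29, against 0.00, 0.01 and 0.09 over all probes. Over the 18 libraries 1 of 79 was called, against 1.74% of all probes. That was CSNK1D, a casein kinase 1 isoform, which was higher by 0.92 on the log2 scale (SE 0.19, adjusted p = 0.016 by limma). CSNK1D held 337.5, 351 and 460 normalized reads in the SUM149PT controls and 695, 1094 and 915 after siASAP1. In Hs578T it held 297, 274 and 269 and then 445, 468 and 542. The groups did not overlap in SUM149PT (17.3% of all probes did not) or in Hs578T (12.1%), whereas in BT549 they overlapped. Like GSK3B it encodes a kinase, to which the same statement on the control pool applies.

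Among cadherins and junction genes, 2 of 8 probes met the limits in BT549 (6.97% of all probes), 2 of 15 in SUM149PT (9.56%) and 0 of 11 in Hs578T (2.78%). In BT549 the mesenchymal cadherin CDH11 held 7447, 7028 and 7901 normalized reads in the controls and 3859, 2685 and 1863 after siASAP1, a Log2 FC of -1.47 (SE 0.34, adjusted p = 0.31 by limma). CDH6 was lower there too, at -2.72 (SE 0.77, adjusted p = 0.49 by limma). The mesenchymal CDH2 went the other way in BT549 without meeting the limits. It held 462, 262 and 252.5 normalized reads in the controls and 555, 556 and 691 after siASAP1. These groups did not overlap (13.9% of all probes did not in this line). In SUM149PT the E-cadherin gene CDH1 held 94.4, 114 and 87.9 in the controls and 229, 263 and 210 after siASAP1, a Log2 FC of 1.24 (SE 0.42, adjusted p = 0.41 by limma), and the desmosomal cadherin DSG3 was called upwards with 1 of its 3 controls above 0. CDH11, CDH6, CDH1 and DSG3 met the DEG limits and none passed adjustment over all probes.

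Among nuclear factors and targets, LEF1, a TCF/LEF factor, held 262, 76.5 and 198 normalized reads in the SUM149PT controls and 71.4, 48.7 and 40.7 after siASAP1 (Log2 FC -1.58, SE 0.61, adjusted p = 0.46 by limma). The groups did not overlap (17.3% of all probes did not in this line), and the lowest control was siCtrl replicate 2. The beta-catenin co-activator BCL9L was higher in the same line (1.09, SE 0.44, adjusted p = 0.46 by limma). BCL9L held 704, 382 and 786.5 normalized reads in the controls and 1232, 1708 and 982 after siASAP1. The lowest control was again siCtrl replicate 2, and the BCL9L call without that library is not given here. FOSL1, an AP-1 subunit counted among Wnt targets, was called upwards in BT549 (1.33) and SUM149PT (1.5). In BT549 it held 155, 39.0 and 161 normalized reads in the controls and 273, 212 and 272 after siASAP1. The call without the lowest control is not given here. In Hs578T FOSL1 held 700, 853 and 220 and then 503, 498 and 557, with overlap. TCF4, which is a different gene from TCF7L2, was called downwards in BT549 (-1.68, SE 0.7, adjusted p = 0.63 by limma). Its groups overlapped, with siASAP1 replicate 1 (115.6 normalized reads) above the lowest control (77.4). In Hs578T the calls were the tankyrase TNKS (1.51), which promotes turnover of Axin, and DVL3 (1.04), a Dishevelled relay protein. Of the target list as a whole, BT549 had 4 of 8 probes past the limits (2 up and 2 down, 6.97% of all probes), Hs578T 0 of 12 (2.78%) and SUM149PT 1 of 12 (9.56%), and 0 of 12 were called over the 18 libraries (1.74%).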

How the data were processed

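TempO-Seq reads of 18 libraries were assigned to probes by the authors, whose processing notes name bcl2fastq, Bowtie and DESeq2, with no versions used here. The genome build of the authors is not given in the sources used here. The deposited log2 values are the authors' reads per probe divided by a DESeq2 size factor, plus 1, on the log2 scale. Undoing the log2 gave whole reads for 100% of values (tolerance 0.05). Probes whose mean normalized count reached 10 over the libraries compared were tested with limma 3.58.1 (lmFit, eBayes with trend) in R 4.3.3, with Benjamini-Hochberg adjustment over all probes tested. Each line was fitted alone, then all 18 libraries with line as a covariate or with an interaction, and the controls of the lines against each other. DEG limits were used within lines and an adjusted p under 0.05 elsewhere. The design assumed log2 values, and the count test of the authors was not run. Exact permutation tests of 3 against 3 libraries cannot give a p under 0.1. Groups, replicate numbers and doses came from the labels. P-values measure the spread between these triplicates.

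The members and lists were chosen with earlier results of these data known. Named genes were the members, ASAP1, up to 2 probes per role list and comparison with the smallest p among those called, the 5 probes nearest CTNNB1, and markers. Gene positions are from GENCODE release 29 (GRCh38) and promoter windows from RefSeq. The fits were also run on simulated reads drawn independently for each library. Such reads lack the shared axis of replicate spread, so they cannot show how the fits behave with it.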

Additional observations from a re-analysis of the deposited data

How the results depend on the processing

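CTNNB1 kept its lower level after siASAP1 in every line under every alternative run. Its DEG call in BT549 did not hold throughout. It was lost with quantile normalization (Log2 FC -0.98), with scaling by library totals (-0.95) and with voom (-1 when rounded). Replicate numbers did not pair the libraries of BT549 (correlation of same-numbered deviations -0.19, -0.39 and 0.14) or of SUM149PT (-0.33, -0.66 and -0.35). In these lines 1 of 3 and 0 of 3 libraries correlated best with their own number. In Hs578T the correlations were 0.10, 0.42 and 0.41, and 3 of 3 libraries correlated best with their own number. With the replicate block the adjusted p of CTNNB1 over the 18 libraries was 0.089 by limma, no longer under 0.05, CTNND1 met the DEG limits in Hs578T (Log2 FC 1.89, adjusted p = 0.36 by limma), and calls over all probes numbered 34 in place of 182 over the 18 libraries, 435 in place of 264 in Hs578T, 351 in place of 963 in SUM149PT and 0 in place of 1 for the difference between lines.

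Adjusted calls numbered 0 in each line (smallest adjusted p 0.054, 0.53 and 0.067 by limma, and 754, 502 and 1025 probes at an unadjusted p under 0.05). Without a filter the counts were 430 in Hs578T, 111 over the 18 libraries and 19 for the difference, and with a minimum of 50 they were 142 in Hs578T and 2 for the difference. The difference count was 5 with quantile normalization, 22 with a pseudocount of 0.1 and 2 with voom, and all 18 libraries in a single fit gave 1560 in SUM149PT.

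Leaving out 1 library, calls ranged from 325 to 2169 in BT549, 158 to 634 in Hs578T, 501 to 2325 in SUM149PT, 99 to 206 over the 18 libraries, 1 to 26 for the difference, 1313 to 3453 for SUM149PT against BT549, 1362 to 3200 for SUM149PT against Hs578T and 906 to 2264 for BT549 against Hs578T. The highest counts came without BT549 siASAP1 replicate 1 (2169), Hs578T siCtrl replicate 3 (634) and SUM149PT siCtrl replicate 2 (2325, 26, 3453, 3200 and 2264).

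Small Log2 FCs of uncalled genes changed sign. With quantile normalization GSK3B in Hs578T and APC in SUM149PT were -0.01, and CTNNB1 in SUM149PT against Hs578T controls -0.07. With scaling by library totals CTNNA1 in Hs578T was 0.01, LRP6 0.17 in SUM149PT and 0.1 over the 18 libraries, and AXIN2 in BT549 against Hs578T controls 0.03. With voom GSK3B over the 18 libraries was -0.15. Leaving out 1 library in Hs578T, the Log2 FC ranged from -0.7 to 0.5 for GSK3B, -0.23 to 0.71 for APC, -0.18 to 0.31 for AXIN2, -0.48 to 0.38 for TCF7L2, -0.45 to 0.22 for CTNNA1 and -0.11 to 0.85 for LRP6. In SUM149PT it ranged from -0.39 to 0.65 for APC, -0.36 to 0.8 for JUP, -1.3 to 0.99 for CTNNA1, -0.5 to 0.44 for CTNND1 and -0.32 to 0.29 for LRP6, and in BT549 from -1.29 to 1.3 for CTNND1. Over the 18 libraries it ranged from -0.27 to 0.35 for GSK3B and -0.15 to 0.12 for LRP6. Between controls it ranged from -0.03 to 0.14 for CTNNB1 (SUM149PT against Hs578T) and -0.48 to 0.03 for AXIN2 (BT549 against Hs578T). The cause was not tested.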

Other observations

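Of 73 further pathway probes tested between the control libraries of the lines, 25 were called for SUM149PT against BT549 (13 higher, 12 lower, 18.2% of all probes). For SUM149PT against Hs578T 22 were called (8 higher, 14 lower, 20.2% of all probes), and for BT549 against Hs578T 16 (4 higher, 12 lower, 13.9% of all probes). The non-canonical ligand WNT5A was lowest in the BT549 controls (at most 35.2 normalized reads, against 535 to 849 in Hs578T, Log2 FC -4.52, adjusted p = 0.00011 by limma). BT549 alone held the inhibitor DKK3 at a high level, with 351 to 514 normalized reads in its controls against at most 0.985 in the controls of the other lines. It was also the line with reads of the Wnt agonist RSPO2 in every library. TCF7, a TCF/LEF factor, was lower in SUM149PT than in Hs578T (-6.01, adjusted p = 0.00084 by limma), and so were the targets TNFRSF19 (-4.20, adjusted p = 0.00012 by limma) and APCDD1 (-4.82, adjusted p = 0.0014 by limma). Of 12 target probes tested in that comparison 3 were called lower and 2 higher. The target EPHB3 ran the other way against BT549 (6.78, adjusted p = 0.00013 by limma).

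RSPO3, an agonist that keeps Frizzled receptors at the surface, held 18.6, 0 and 0 normalized reads in the SUM149PT controls and 195, 165 and 166 after siASAP1. The groups did not overlap (17.3% of all probes did not in this line), and the Log2 FC was 6.03 (SE 1.23, adjusted p = 0.33 by limma). In BT549, where the RSPO3 controls held 39.3 to 113, the groups overlapped, and in Hs578T no library held more than 8.98.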
